A study of Mus musculus with 6 samples.

Results

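ABC transporter genes encode membrane and soluble proteins that bind and hydrolyse ATP through a conserved nucleotide-binding cassette, and they fall into subfamilies A to G. Most of their products move lipids, sterols, peptides, haem precursors or drugs across membranes, while the products of subfamilies E and F act on the ribosome. In bone marrow the family is best known for its drug and dye efflux pumps: Abcg2 (BCRP) expels Hoechst dye and so gives the side population in which blood-forming stem cells are enriched, and the P-glycoproteins Abcb1a and Abcb1b expel rhodamine and many cytotoxic drugs. The genes described here are the rows whose symbol is Abc, a subfamily letter from a to g and a number, with at most 1 further letter. This rule found 50 genes of the 22381 in the table: 16 in subfamily A, 10 in B, 10 in C, 4 in D, 1 in E, 3 in F and 6 in G.

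RNA was sequenced from LSK cells, the lineage-negative bone marrow cells that carry Sca-1 and c-Kit and include the blood-forming stem cells. By the labels, 3 samples came from Tgif1-/- mice, which lack a homeodomain repressor of TGF-beta and retinoic acid signalling, and 3 came from wild-type mice (Tgif1+/+). All mice were C57BL/6 and aged 8 to 12 weeks. The labels give neither the removed part of Tgif1 nor the animals behind each sample, so p-values may rest on technical spread. The table gives 1 FPKM value per group (fragments scaled for transcript length and library size), with no SD, no value per sample and an unknown depth. Differences are given as log2 of the Tgif1-/- FPKM over the wild-type FPKM, each with the standard error (SE) implied by the authors' test statistic and, where given, the 95% interval that follows from it.

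The libraries carried the markers of the sort. The summed level of 10 LSK markers, among them Kit, Ly6a (Sca-1) and Cd34, was 1632 FPKM in Tgif1-/- cells and 1678 FPKM in wild-type cells, and 8 mature lineage markers summed to 42.0 FPKM in Tgif1-/- cells and 43.2 FPKM in wild-type cells, of which Itgam gave 35.4 FPKM in Tgif1-/- cells and 34.0 FPKM in wild-type cells. Of the 5 lineage markers tested, 2 were lower in Tgif1-/- cells at an unadjusted p under 0.05 and none was called. None of these 18 genes was listed at 0. For Tgif1 itself the table lists 88.6 FPKM under the label Tgif1-/- and 71.5 FPKM under wild type, with a failed test, so the targeted gene does not bear out the labels and each direction is one between groups as labelled. Mast cell and basophil markers summed to 441 FPKM in Tgif1-/- cells and 201 FPKM in wild-type cells, with 4 of 8 called higher (Prss34, Cpa3, Mcpt8 and Ms4a2). B cell markers summed to 58.6 FPKM in Tgif1-/- cells and 120 FPKM in wild-type cells, with 4 of 8 called lower (Igll1, Blnk, Ebf1 and Cd79a). Megakaryocyte markers (6) summed to 221 FPKM in Tgif1-/- cells and 144 FPKM in wild-type cells, with Pf4 and Itga2b higher at an unadjusted p under 0.05 and Ppbp lower, at 4.61 FPKM in Tgif1-/- cells and 9.54 FPKM in wild-type cells. Erythroid markers (6) summed to 325 FPKM in Tgif1-/- cells and 230 FPKM in wild-type cells. Of these sums Car1, higher at an unadjusted p under 0.05, gave 281 FPKM in Tgif1-/- cells and 187 FPKM in wild-type cells. Macrophage and monocyte markers (8) summed to 333 FPKM in Tgif1-/- cells and 317 FPKM in wild-type cells. Of these sums Lyz2 gave 280 FPKM in Tgif1-/- cells and 268 FPKM in wild-type cells. Endothelial and stromal markers (7) summed to 61.7 FPKM in Tgif1-/- cells and 58.9 FPKM in wild-type cells. Most of that last sum was Pecam1, whose test failed, at 54.3 FPKM in Tgif1-/- cells and 44.9 FPKM in wild-type cells. Bgn and Fn1 of the same list were lower at an unadjusted p under 0.05, Bgn at 5.93 FPKM in Tgif1-/- cells and 11.9 FPKM in wild-type cells, Fn1 at 0.467 FPKM in Tgif1-/- cells and 1.07 FPKM in wild-type cells. None of the megakaryocyte, erythroid, macrophage and stromal markers was called or listed at 0. In bulk RNA a smaller number of cells of a type and less RNA per cell cannot be told apart.

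No ABC gene passed the authors' test. Of the 50 genes, 29 were tested, 4 had a failed test and 17 had too few reads. By the authors' deposited Cuffdiff q, at or under 0.05, calls numbered 0 of 29, where 0.662% of all 10730 tested genes were called, 0.289% higher and 0.373% lower. At an unadjusted p under 0.05 there were 2 of 29 (6.90%), Abca4 higher and Abcd2 lower in Tgif1-/- cells, against a background of 5.41% of all tested genes, 1.85% higher and 3.55% lower. The share of ABC genes at that level was therefore near the share of all genes. The median log2 ratio of the 29 was 0.04, beside -0.03 for all tested genes, and 19 of 29 had a higher value in Tgif1-/- cells (65.5%, beside 42.6% of all tested genes). No call stands behind that split. Medians over all tested genes, and shares by direction, size or interval of the ratio, cover the 10683 tested genes above 0 in both groups.

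The summed level of the family was close between the groups, while the listed ratios of single ABC genes were more widely spread than those of all tested genes. The median absolute log2 ratio was 0.22 for the 29 tested ABC genes and 0.13 for all tested genes. It was under 0.5 for 75.9% of the tested ABC genes, beside 87.9% of all tested genes. The summed FPKM of all 50 was 726 in Tgif1-/- cells and 733 in wild-type cells. Abca2, Abcf1, Abce1 and Abcg2 were the highest 4 genes in each group and made up 44.8% of that sum in Tgif1-/- cells and 45.3% in wild-type cells. A level of at least 1 FPKM in a group was reached by 29 genes (58.0%, beside 55.6% of all rows), 25 of them tested and 4 failed. The 17 genes with too few reads were at most 0.307 FPKM, and 8 of those were listed at 0 in both groups.

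**Figure D1:**
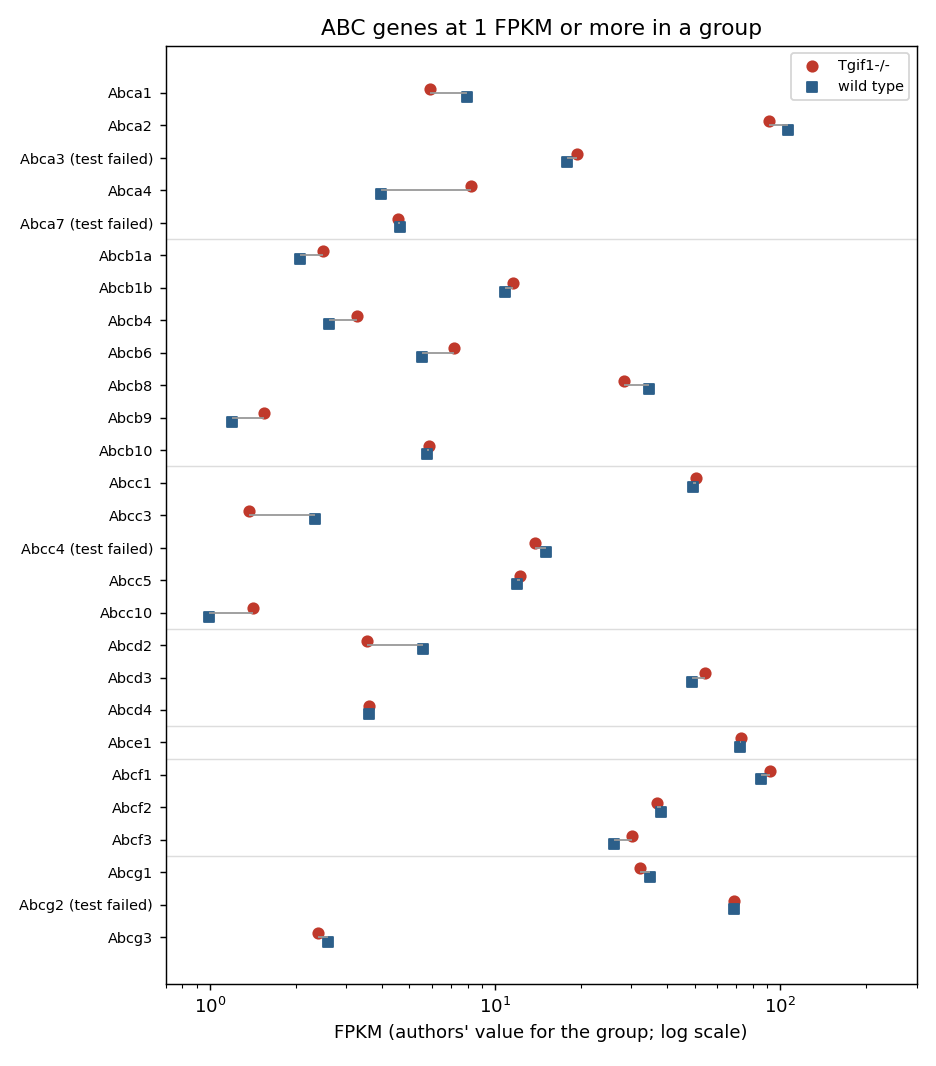
Authors' FPKM values (log scale) of 27 of the 29 ABC genes that reached 1 FPKM in either group, by subfamily, with Tgif1-/- as red circles and wild type as blue squares; there is 1 value per group and no error bar. The Abcg2 symbols overlie each other near 69 FPKM, while Abca4 (8.25 FPKM in Tgif1-/- cells and 3.98 FPKM in wild-type cells) shows the widest gap.

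Among the stem cell efflux pumps, Abcg2 stood far above the P-glycoproteins. Abcg2 (ENSMUSG00000029802, chromosome 6, positions 58534517 to 58642863 in the table) was at 68.6 FPKM in Tgif1-/- cells and 68.9 FPKM in wild-type cells, a log2 ratio of -0.01. That level was at or above 90.7% of all rows in each group. Its test is marked as failed in the authors' deposited table. Its ratio thus comes without an error, and equal group values do not show that the samples were equal. Abcb1b (ENSMUSG00000028970, chromosome 5, positions 8798147 to 8866314) was at 11.5 FPKM in Tgif1-/- cells and 10.8 FPKM in wild-type cells. Its log2 ratio was 0.09 (SE 0.23, 95% interval -0.36 to 0.54, p = 0.698 in the authors' deposited table). Abcb1a (ENSMUSG00000040584, chromosome 5, positions 8660077 to 8748575) was at 2.48 FPKM in Tgif1-/- cells and 2.07 FPKM in wild-type cells. Its log2 ratio of 0.26 had an SE of 0.52 and an interval of -0.75 to 1.28, too wide to leave out a 2-fold rise.

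On the per-length FPKM scale the level of Abcb1b was 4.65 times that of Abcb1a in Tgif1-/- cells and 5.24 times in wild-type cells, and the level of Abcg2 was 5.96 times that of Abcb1b in Tgif1-/- cells and 6.37 times in wild-type cells. Abcb1a and Abcb1b are near copies that lie next to each other, and mice carry both where humans carry a single gene. Of the 50-base windows of the longest Abcb1b coding transcript in GENCODE M21, 18.0% also occur in an Abcb1a transcript, and for Abcb1a 15.5% occur in Abcb1b. Reads from such windows could be split either way, so the separate values of both genes are uncertain. Their sum was 14.0 FPKM in Tgif1-/- cells and 12.9 FPKM in wild-type cells, a log2 ratio of 0.12. No 50-base window of Abcg2 was found in a transcript of another gene.

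The sequences just before the RefSeq transcription start are shown for Abcb1b, the P-glycoprotein gene with the higher level, and for Abca4, the ABC gene with the highest ratio among those tested. Tgif1 is known to bind the core TGTCA. The windows are the 250 bases before the RefSeq start on GRCm38.p6, both on the plus strand, and were searched for TGTCA and its reverse complement TGACA. They lie at chr5:8797897-8798146 for Abcb1b and chr3:122044210-122044459 for Abca4.
Abcb1b: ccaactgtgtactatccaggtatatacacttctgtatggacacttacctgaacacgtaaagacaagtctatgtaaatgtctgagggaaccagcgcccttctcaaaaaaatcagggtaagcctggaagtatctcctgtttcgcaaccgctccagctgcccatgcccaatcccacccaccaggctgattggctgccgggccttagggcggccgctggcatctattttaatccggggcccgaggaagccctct
Abca4: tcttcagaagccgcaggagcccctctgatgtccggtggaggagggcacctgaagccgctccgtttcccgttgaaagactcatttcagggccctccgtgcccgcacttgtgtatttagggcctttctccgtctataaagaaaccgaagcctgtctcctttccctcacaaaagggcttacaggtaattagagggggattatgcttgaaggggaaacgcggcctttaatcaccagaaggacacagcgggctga
Both windows hold 0 matches. The RefSeq window of Abcb1a holds 1 match and is not shown, since it ends 93.0 kb before the Abcb1a start in GENCODE M21. Abcg2 has 3 RefSeq windows, also not shown. The window that ends 12.1 kb from the nearest Abcg2 start in GENCODE M21 holds 1 match. Those that end 0 and 0.019 kb from such a start hold 0. Across RefSeq start windows of ABC genes, 9 of 45 (from 38 genes) hold at least 1 match on either strand, beside 13124 of all 32851 windows of that length. A match is a run of letters and not a binding site, and no binding was measured here.

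Subfamily A holds full-length lipid and retinoid transporters. It held the highest ABC level and, among tested genes, the widest spread of ratios. Abca4 (ENSMUSG00000028125, chromosome 3, positions 121747361 to 121882979), the retinoid flippase of photoreceptors, was at 8.25 FPKM in Tgif1-/- cells and 3.98 FPKM in wild-type cells. This was a 2.07-fold difference, a log2 ratio of 1.05 (SE 0.38, 95% interval 0.30 to 1.80). It had p = 0.00599 and q = 0.346 in the authors' deposited table, so it was not called. Mast cell and basophil markers were higher and B cell markers lower in the same group values, as given above, and their part in the Abca4 value was not tested. Abca1, which loads cholesterol and phospholipid onto apolipoprotein A-I, was at 5.88 FPKM in Tgif1-/- cells and 7.96 FPKM in wild-type cells (log2 ratio -0.44, SE 0.31, p = 0.157 in the authors' deposited table).

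Abca2, an endosomal and lysosomal lipid transporter known from myelin-forming cells, had the highest wild-type level of the family. It was at 91.3 FPKM in Tgif1-/- cells and 106 FPKM in wild-type cells, a log2 ratio of -0.22 (SE 0.19, interval -0.59 to 0.16). Abca3, which fills the lamellar bodies of lung type II cells, was at 19.3 FPKM in Tgif1-/- cells and 17.9 FPKM in wild-type cells, and Abca7, a phospholipid transporter of phagocytes and brain, at 4.55 FPKM in Tgif1-/- cells and 4.65 FPKM in wild-type cells. The tests of Abca3 and Abca7 failed. Below 1 FPKM, the tested genes Abca5, Abca9 and Abca17 had log2 ratios of 0.14, -0.93 and 0.67, with SEs of 0.33, 0.52 and 1.18. Abca9 had the lowest ratio of the tested ABC genes, at 0.220 FPKM in Tgif1-/- cells and 0.419 FPKM in wild-type cells (p = 0.0752 in the authors' deposited table). Of the other 8 members, Abca12, Abca14, Abca15 and Abca16 were listed at 0 in both groups, and Abca6, Abca8a, Abca8b and Abca13 had too few reads to test. Abca8b was at 0.307 FPKM in Tgif1-/- cells and 0.138 FPKM in wild-type cells, with p = 0.0348 in the authors' deposited table but a status of too few reads, so it is not among the counts. Over the 6 tested genes of subfamily A, 3 were higher and 3 lower, and the median log2 ratio was -0.04, or -0.22 when genes that stayed under 1 FPKM were left out.

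Subfamily B joins the P-glycoproteins with transporters of mitochondria and lysosomes. All 8 tested genes had an absolute log2 ratio under 0.5, as did 87.9% of all tested genes. Of the 8, 7 had the higher value in Tgif1-/- cells, beside 42.6% of all tested genes, and none of them was called. The median log2 ratio was 0.18, and 0.04 when genes that stayed under 5 FPKM were left out. Abcb8, a mitochondrial transporter, was the member with the lower value, at 28.4 FPKM in Tgif1-/- cells and 34.7 FPKM in wild-type cells (log2 ratio -0.29, SE 0.18, p = 0.105 in the authors' deposited table).

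Abcb10, a mitochondrial transporter that supports haem synthesis in erythroid cells, was at 5.84 FPKM in Tgif1-/- cells and 5.76 FPKM in wild-type cells. Its row shares 1 block of 4435 kb with 74 other rows, so its value may hold reads of other genes. The same limit holds for Abca3, Abcc9, Abcc10 and Abcd3, described in their own subfamilies. Each shares a block with 1 other row: Gm10506 for Abca3, 5330439B14Rik for Abcc9, Dlk2 for Abcc10 and Gm17676 for Abcd3. Abcb6, linked to porphyrin transport, was at 7.16 FPKM in Tgif1-/- cells and 5.54 FPKM in wild-type cells (log2 ratio 0.37, SE 0.50). In GENCODE M21, 90.3% of the 50-base windows of Abcb6 also occur in transcripts of Gm29253, which leaves its value uncertain where both were counted. Abcb4, the phosphatidylcholine floppase of bile, was at 3.27 FPKM in Tgif1-/- cells and 2.61 FPKM in wild-type cells, and Abcb9, a lysosomal peptide transporter, at 1.54 FPKM in Tgif1-/- cells and 1.20 FPKM in wild-type cells. Abcb5 had too few reads, and Abcb11, the bile salt export pump, was listed at 0 in both groups.

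**Figure D2:**
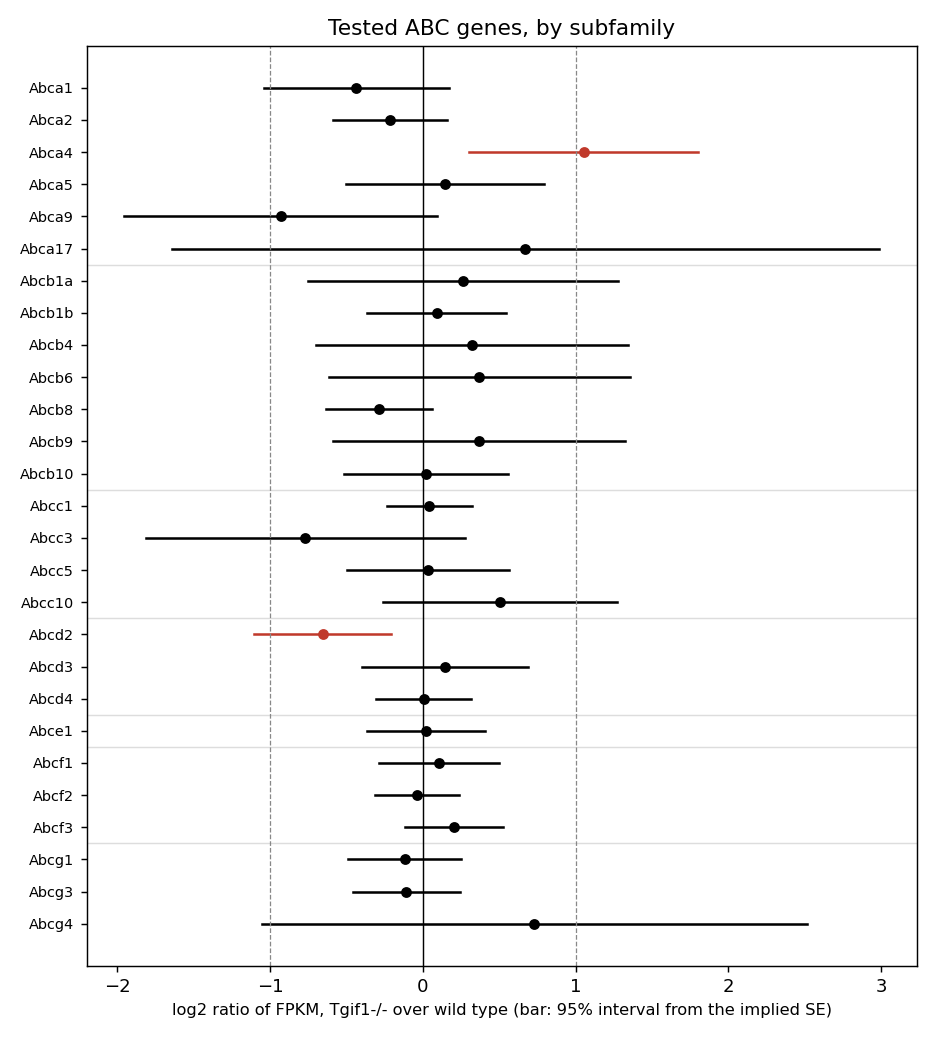
Log2 ratio of FPKM (Tgif1-/- over wild type) of 27 of the 29 tested ABC genes by subfamily, with bars for the 95% interval from the SE implied by the authors' statistic; dashed lines mark 2-fold, and red marks an unadjusted p under 0.05. The intervals of Abca4 and Abcd2 do not reach 0, and those of Abca17 and Abcg4 span more than 2-fold in both directions.

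Subfamily C holds the multidrug resistance proteins, which export organic anions. Abcc1, which exports leukotriene C4 and glutathione conjugates, was at 50.6 FPKM in Tgif1-/- cells and 49.2 FPKM in wild-type cells. Its log2 ratio of 0.04 had an SE of 0.14 and an interval of -0.24 to 0.32, among the narrowest of the family. The cyclic nucleotide exporters were lower in level: Abcc5 was at 12.2 FPKM in Tgif1-/- cells and 11.9 FPKM in wild-type cells, and Abcc4, whose test failed, at 13.8 FPKM in Tgif1-/- cells and 15.1 FPKM in wild-type cells. Abcc3, an exporter of bile salts and glucuronides, was at 1.37 FPKM in Tgif1-/- cells and 2.33 FPKM in wild-type cells (log2 ratio -0.77, SE 0.53, p = 0.148 in the authors' deposited table). Abcc10 was at 1.41 FPKM in Tgif1-/- cells and 0.993 FPKM in wild-type cells (log2 ratio 0.51, SE 0.39, p = 0.197 in the authors' deposited table). Abcc8, the sulphonylurea receptor of the pancreatic beta cell, and Abcc12 were listed at 0 in both groups, while Abcc2, Abcc6 and Abcc9 had too few reads. The 4 tested genes of subfamily C had a median log2 ratio of 0.04.

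Subfamily D carries fatty acids into peroxisomes, apart from Abcd4, which serves lysosomal cobalamin release. Abcd2 (ENSMUSG00000055782, chromosome 15, positions 90976315 to 91022238), a peroxisomal transporter of very long-chain fatty acids, had the smallest p of the family. It was at 3.55 FPKM in Tgif1-/- cells and 5.60 FPKM in wild-type cells, a log2 ratio of -0.66 (SE 0.23, 95% interval -1.10 to -0.21). It had p = 0.00397 and q = 0.273 in the authors' deposited table, so it was not called. Abcd3, the most abundant peroxisomal member, was at 54.2 FPKM in Tgif1-/- cells and 49.1 FPKM in wild-type cells (log2 ratio 0.14, SE 0.28). Its level was 15.3 times that of Abcd2 in Tgif1-/- cells and 8.76 times in wild-type cells. Abcd4 was at 3.62 FPKM in Tgif1-/- cells and 3.61 FPKM in wild-type cells, with an interval of -0.31 to 0.32. The median log2 ratio of the 4 tested genes of subfamily D was -0.13, or -0.27 when Abcd4, which stayed under 5 FPKM, was left out.

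The ribosome-associated members of subfamilies E and F, which lack membrane-spanning parts, were all tested and all had intervals inside 2-fold in both directions. Abce1, which splits ribosomes after termination, was at 72.8 FPKM in Tgif1-/- cells and 71.9 FPKM in wild-type cells (log2 ratio 0.02, interval -0.37 to 0.41). Abcf1, a translation initiation factor, was at 92.0 FPKM in Tgif1-/- cells and 85.5 FPKM in wild-type cells, and Abcf2 at 37.0 FPKM in Tgif1-/- cells and 38.0 FPKM in wild-type cells. Abcf3 was at 30.1 FPKM in Tgif1-/- cells and 26.1 FPKM in wild-type cells (log2 ratio 0.21, SE 0.16, p = 0.208 in the authors' deposited table). The median log2 ratio of the Abcf genes was 0.11.

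In subfamily G, the sterol exporter Abcg1, which passes cholesterol to HDL particles, was at 32.1 FPKM in Tgif1-/- cells and 34.9 FPKM in wild-type cells (log2 ratio -0.12, SE 0.19, interval -0.49 to 0.25). On the FPKM scale its level was 5.46 times that of Abca1, its partner in cholesterol efflux, in Tgif1-/- cells and 4.39 times in wild-type cells. Abcg3, a rodent relative of Abcg2, was at 2.40 FPKM in Tgif1-/- cells and 2.59 FPKM in wild-type cells, and Abcg4 at 0.585 FPKM in Tgif1-/- cells and 0.354 FPKM in wild-type cells. The sterol transporters of liver and gut, Abcg5 and Abcg8, share 1 block in the table. Abcg5 was listed at 0 in both groups, and Abcg8 was at 0.0414 FPKM in Tgif1-/- cells and 0.0742 FPKM in wild-type cells, with too few reads to test. The 3 tested genes of subfamily G had a median log2 ratio of -0.11.

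Tgif1 lies on chromosome 17, where 7 ABC genes also lie: Abca3, Abca17, Abcc10, Abcf1, Abcg1, Abcg5 and Abcg8. None is a near neighbour, since the closest, Abcg5 and Abcg8, begin 13.9 Mb beyond Tgif1 and the farthest, Abca17, ends 46.7 Mb before it. The 4 tested ones were not called, and their log2 ratios ranged from -0.12 for Abcg1 to 0.67 for Abca17.

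How far the table could show a difference varied among the genes. The implied SE of the 29 tested ABC genes ran from 0.14 for Abcf2 to 1.18 for Abca17, with a median of 0.27, beside 0.26 for all tested genes. For 17 of 29 (58.6%) the 95% interval lay inside 2-fold in both directions, beside 71.2% of all tested genes. For the other 12, among them Abcb1a, Abcb4 and Abcb6, the interval reached 2-fold in at least 1 direction, so a difference of that size was not excluded at this precision.

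**Figure D3:**
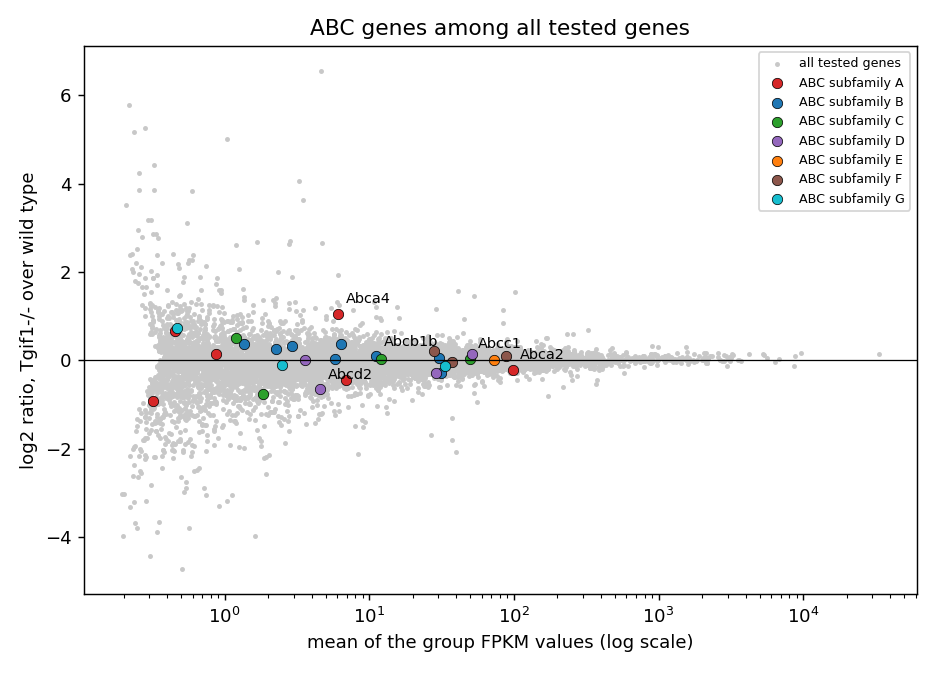
Log2 ratio (Tgif1-/- over wild type) against the mean of the group FPKM values (log scale) for all tested genes above 0 in both groups (grey) and the 29 tested ABC genes, coloured by subfamily. The ABC genes lie within the cloud of all genes, between -0.93 for Abca9 and 1.05 for Abca4.

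Genes that ABC proteins work with were read from 7 partner lists, and none held a called gene by Cuffdiff. Of the 67 tested genes of these lists, 5 were at an unadjusted p under 0.05 (7.46%, beside 5.41% of all tested genes), and 28 were higher in Tgif1-/- cells (41.8%, beside 42.6% of all tested genes). No single list held more than 1 gene at that level. The list of sterol handling (the LXR and SREBP regulators, Npc1, Soat1 and others) had 13 tested genes, 3 higher and 10 lower, a median log2 ratio of -0.06 and 0 at an unadjusted p under 0.05. Rxra, the retinoid X receptor that pairs with LXR, was at 4.89 FPKM in Tgif1-/- cells and 6.02 FPKM in wild-type cells (p = 0.148 from the authors' deposited table).

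Haem and iron-sulphur synthesis, served by Abcb6 and Abcb10, had 9 tested genes, 4 higher and 5 lower, with a median of -0.02 and 1 at an unadjusted p under 0.05. In that list Uros, a haem synthesis enzyme, was lower at an unadjusted p of 0.0383 in the authors' deposited table, at 5.99 FPKM in Tgif1-/- cells and 9.10 FPKM in wild-type cells, and Alas2 was at 4.58 FPKM in Tgif1-/- cells and 6.39 FPKM in wild-type cells. The peroxisome list had 8 tested genes, 3 higher and 5 lower, a median of -0.09 and 1 at that level. Pex19, which delivers peroxisomal membrane proteins such as the ABCD transporters, was higher at an unadjusted p of 0.0201 in the authors' deposited table, at 27.2 FPKM in Tgif1-/- cells and 23.1 FPKM in wild-type cells. The thioesterase gene Acot8 was at 8.71 FPKM in Tgif1-/- cells and 5.82 FPKM in wild-type cells. The list of ribosome recycling and termination, which also holds many translation initiation factor genes, had 9 tested genes. Of these, 5 were higher and 4 lower, with a median of 0.00 and 0 at that level. Its smallest p-values belonged to Eif5b, at 23.4 FPKM in Tgif1-/- cells and 26.7 FPKM in wild-type cells, and Eif2s1, at 66.6 FPKM in Tgif1-/- cells and 70.9 FPKM in wild-type cells.

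The glutathione list, whose products the multidrug resistance proteins export, had 11 tested genes, 4 higher and 7 lower, a median of -0.13 and 1 at an unadjusted p under 0.05. Ltc4s, which makes the Abcc1 cargo leukotriene C4, was at 8.25 FPKM in Tgif1-/- cells and 12.0 FPKM in wild-type cells, a log2 ratio of -0.53 (SE 0.19). The authors' deposited table gives p = 0.00598 and q = 0.346. Gsta4 was at 6.72 FPKM in Tgif1-/- cells and 10.2 FPKM in wild-type cells. The list of xenobiotic and stress regulators had 10 tested genes, 3 higher and 7 lower, a median of -0.09 and 1 at that level. Esr1, the oestrogen receptor alpha gene, was at 25.5 FPKM in Tgif1-/- cells and 34.4 FPKM in wild-type cells, a log2 ratio of -0.43 (SE 0.12), with p = 0.000337 and q = 0.0502 in the authors' deposited table, just outside the threshold. Pparg of that list, a lipid-sensing nuclear receptor, was at 0.471 FPKM in Tgif1-/- cells and 0.222 FPKM in wild-type cells (p = 0.162 in the authors' deposited table).

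Peptide loading for MHC class I, which rests on the ABC pair Tap1 and Tap2, had 7 tested genes, 6 higher and 1 lower, a median of 0.07 and 1 at an unadjusted p under 0.05. Psmb8, an immunoproteasome subunit, was at 220 FPKM in Tgif1-/- cells and 191 FPKM in wild-type cells (p = 0.0490 in the authors' deposited table), and Psmb9 at 86.4 FPKM in Tgif1-/- cells and 67.3 FPKM in wild-type cells. Tap1, whose test failed, was at 70.5 FPKM in Tgif1-/- cells and 72.5 FPKM in wild-type cells, and Tap2 at 22.8 FPKM in Tgif1-/- cells and 24.6 FPKM in wild-type cells. Tap1, Tap2 and the chloride channel gene Cftr are ABC proteins by structure whose symbols fall outside the naming rule. Cftr was at 0.0442 FPKM in Tgif1-/- cells and 0.359 FPKM in wild-type cells, a log2 ratio of -3.02 (SE 1.00). The authors' deposited table gives p = 0.00247 and q = 0.198, at levels where the ratio is uncertain.

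**Figure D4:**
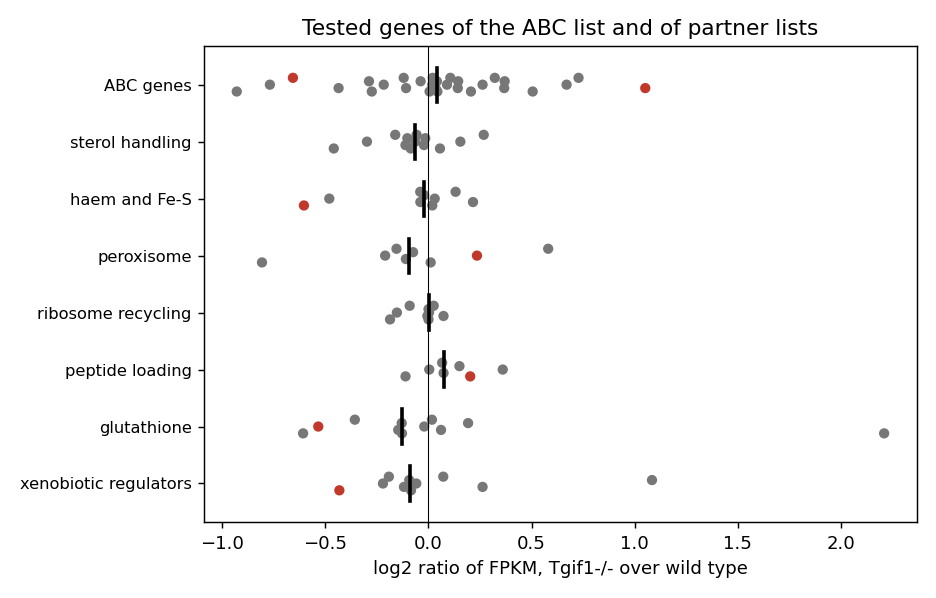
Log2 ratios of FPKM (Tgif1-/- over wild type) of tested genes in the ABC list and in the 7 partner lists, 1 point per gene, with a black bar at each median and red for an unadjusted p under 0.05. The medians lie between -0.13 (glutathione) and 0.07 (peptide loading), and no point is a called gene.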

How the data were processed

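RNA of about 200 ng per sample was taken from LSK cells, per the labels' protocols, in 3 Tgif1-/- and 3 wild-type samples. TopHat and Cuffdiff, without versions, are named in the submitters' processing notes, with hg19, a human build, although the identifiers are mouse. The deposited table holds 1 FPKM value per group and a p-value and q-value per gene, per the file headers, and the authors' log2 fold change with wild type on top, turned round here. Of 20781 identifiers found in GENCODE M21, 173 had the same position, so the table's mouse build is another one that the sources used here do not give. Starts count from 1. No column holds single samples, so depth and spread per sample are unknown.

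A gene was called at status tested and q at or under 0.05 in the authors' Cuffdiff test. The SE is the log2 fold change over the test statistic. The deposited p-values matched the two-sided normal value of that statistic for all 10683 genes above 0 in both groups (within 0.001), and the q-values a Benjamini-Hochberg adjustment over the 10730 tested genes. The 95% interval is 1.96 SE each way. No filter or pseudocount was used in the main values.

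The members, lists and rules were chosen with earlier results of these data known. Named were the efflux pumps, members with p under 0.05, at least 5 FPKM or on the chromosome of Tgif1, the 2 smallest p and 2 highest levels of each subfamily, and of each partner list the called genes or the 2 smallest p. Some genes that this rule selects are not reported here. All 50 identifiers matched GENCODE M21 with the same symbol. Of the 50 genes, 38 matched the RefSeq start windows. Python 3.11.15, pandas 2.3.3, numpy 2.4.6 and scipy 1.17.1 were used. The recalculated tests were also run on data simulated from the same implied SEs. Such a run cannot show whether those SEs cover the spread between samples.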

Additional observations from a re-analysis of the deposited data

How the results depend on the processing

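The count of 0 called ABC genes stayed 0 at a q threshold of 0.1, with at least 1 or 5 FPKM, with 1 row per symbol and centred on the median of tested genes. It was also 0 at a q threshold of 0.01 and with each SE raised to at least the median SE within its expression bin (20 bins). Those 2 settings can only remove calls, so they could not have given another count. The 2 genes at an unadjusted p under 0.05 numbered 2 under each alternative run for that count. With the raised SE, p was 0.0460 for Abcd2 and 0.00599 for Abca4. Medians that moved by over 0.1 were those of subfamily A (-0.04, and -0.22 with at least 1 or at least 5 FPKM in a group), B (0.18, and 0.043 over members with 5 FPKM or more) and D (-0.13, and -0.27 with at least 5 FPKM); fewer genes entered each. With failed and low-read members included, the medians of subfamilies A (0.04) and C (-0.003, from 0.04) changed sign, by under 0.1. Partner lists held 0 called genes, and 1 at a q threshold of 0.1, Esr1. Centred on the median of tested genes, none of the 29 tested ABC genes changed sign or call. The other settings for single genes could not have shown a change. A pseudocount (0.1 or 1) cannot turn a sign, and no call was recomputed with it. The raised SE leaves the ratio as it is and can only raise p and q. No paired analysis was possible because the table holds no values of single samples, and leaving out a sample could not be run for the same reason. Depth is unknown, so no depth limit can be given.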
